A study of Mus musculus with 11 samples.

Results

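The trigeminal ganglion holds the sensory neurons of the face and mouth, and a small group of its thin unmyelinated neurons carries itch. Of 40359 nuclei sequenced from mouse ganglia, 406 (1.01%) were taken as itch nuclei by a rule on 3 transcripts. A nucleus was kept if its unique molecular identifiers (UMIs, each counting 1 captured transcript) for Il31ra, Nppb and Sst summed to at least 3 and at least 1 of them came from Il31ra or Nppb. Nuclei of the same library with no UMI of any of the 3 genes, called zero nuclei here, were the comparison (39073 nuclei).

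Il31ra is the ligand-binding chain of the receptor for interleukin-31, a cytokine released by activated T helper cells in inflamed skin, and it signals as a heterodimer with Osmr through the kinase Jak1 and STAT factors. Nppb encodes a natriuretic peptide that these neurons release in the spinal cord and brainstem, where it is needed for itch, and Sst encodes somatostatin, an inhibitory peptide that facilitates itch by quieting inhibitory interneurons. Neurons of this kind also carry receptors for leukotrienes and serotonin, and are distinct from the itch neurons marked by Mrgpra3 and from those marked by Mrgprd.

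The study sequenced nuclei enriched for the neuronal protein NeuN from adult mice older than 6 weeks, males and females pooled, with 8 count tables. The control table made on the 10x Genomics droplet system came from 10 wild-type C57BL mice, and a second control table came from 16 such mice by Drop-seq, another droplet method. C57BL wild-type mice also gave the tables after infraorbital nerve transection (IOT), in which superficial branches of the nerve to the whisker pad were cut, at days 2, 7, 21 and 75 (10 mice each, 6 at day 75), and after facial injury, shallow cuts of the skin, at day 2 (10 mice). The scratch lesions table came from 10 mice of mixed FVBN, C57BL and 129 strain that carried Fos-tTA TetTag together with tetO-mCherry-2A-Gnaq mutant, an inducible active G protein, and were picked for visible lesions of the head and neck. The study states that the transgene was not detected in somatosensory neurons. As all nuclei of this table came from such mice, lesions, strain, transgenes and library cannot be told apart there. Every 10x condition was 1 library of pooled mice, so no test between conditions was possible, and the pooled Drop-seq table was used for side values. The 10x tables held 3634 to 8660 nuclei, and pairs of them shared 16 to 92 cell barcodes.

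The upstream sequences of the 3 rule genes and Osmr are shown because the nuclei were defined by transcription from 3 of these genes and tested on the fourth. They are the 250 bases before the RefSeq transcript start in GRCm38.p6, 5′ to 3′ on the strand of the gene, with capitals marking a match to one of 3 motifs. These starts lie inside or at another base than the ends of the longer GENCODE gene models given with the levels.
Il31ra, chr13:112580663-112580912, minus strand: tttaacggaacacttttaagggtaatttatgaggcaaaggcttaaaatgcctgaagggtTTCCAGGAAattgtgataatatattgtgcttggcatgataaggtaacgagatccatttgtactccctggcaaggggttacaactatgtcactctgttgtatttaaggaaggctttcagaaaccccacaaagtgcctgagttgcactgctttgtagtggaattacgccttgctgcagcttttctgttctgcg
Nppb, chr4:147985650-147985899, plus strand: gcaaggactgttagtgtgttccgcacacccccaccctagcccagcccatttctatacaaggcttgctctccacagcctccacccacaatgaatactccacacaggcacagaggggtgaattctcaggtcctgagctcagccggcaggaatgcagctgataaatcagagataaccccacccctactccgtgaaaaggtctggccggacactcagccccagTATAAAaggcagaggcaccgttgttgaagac
Sst, chr16:23890845-23891094, minus strand: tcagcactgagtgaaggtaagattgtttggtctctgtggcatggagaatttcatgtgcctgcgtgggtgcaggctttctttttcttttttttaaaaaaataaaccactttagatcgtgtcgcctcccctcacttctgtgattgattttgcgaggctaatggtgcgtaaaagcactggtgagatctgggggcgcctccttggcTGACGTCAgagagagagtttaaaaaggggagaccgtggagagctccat
Osmr, chr15:6874314-6874563, minus strand: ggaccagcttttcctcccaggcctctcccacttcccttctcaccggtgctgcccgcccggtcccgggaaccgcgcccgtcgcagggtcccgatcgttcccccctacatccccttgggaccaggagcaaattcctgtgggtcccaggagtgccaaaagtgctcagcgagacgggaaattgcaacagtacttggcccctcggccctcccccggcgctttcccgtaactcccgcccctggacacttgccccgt

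The motifs were searched on both strands in 32817 RefSeq windows of the same length. The cyclic AMP response element, TGACGTCA, lay 48 to 41 bases before the Sst start and was found in 1.55% of all windows. A TATA box, TATAAA, lay 31 to 26 bases before the Nppb start and was found in 12.4% of windows. A STAT consensus, TTCNNNGAA, lay 191 to 183 bases before the Il31ra start as TTCCAGGAA and was found in 7.01% of windows. The Osmr window, the most GC-rich at 66% against 42% for Il31ra, held none of the 3. A match describes letters in the window and no binding was measured.

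The itch nuclei were a small share of every library. In the 10x control they were 65 of 4368 nuclei (1.49%, exact binomial 95% interval 1.15 to 1.89), and in Drop-seq 17 of 3178 (0.535%, 0.312 to 0.855). After IOT they were 46 of 4611 (0.998%) at day 2, 23 of 4033 (0.570%) at day 7, 38 of 4046 (0.939%) at day 21 and 37 of 3634 (1.02%) at day 75. Facial injury gave 57 of 8660 (0.658%, 0.499 to 0.852) and scratch lesions 123 of 7829 (1.57%, 1.31 to 1.87). The intervals, here and below, cover counting error only.

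A share taken with a UMI threshold moves with depth. Median UMIs per itch nucleus ran from 1597 at IOT day 7 to 3467 at day 75 in the 10x libraries, and were below those of the zero nuclei in 6 of 7, the exception being scratch lesions (3310 against 2282). With each nucleus thinned to 1104 UMIs before the rule, the shares were 0.595% (0.389 to 0.871) in the 10x control, 0.344% in Drop-seq, 0.347%, 0.319%, 0.445% and 0.303% at IOT days 2, 7, 21 and 75, 0.192% (0.108 to 0.317) after facial injury and 0.438% (0.302 to 0.615) with scratch lesions. The thinned scratch lesions share was thus below that of the control while the unthinned one was above it, and both pairs of intervals overlapped. No order of the 10x control and scratch lesions was read from these shares. The facial injury share was below the control share before and after thinning, and its intervals did not overlap those of the control, with 1 library on each side.

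**Figure D1:**
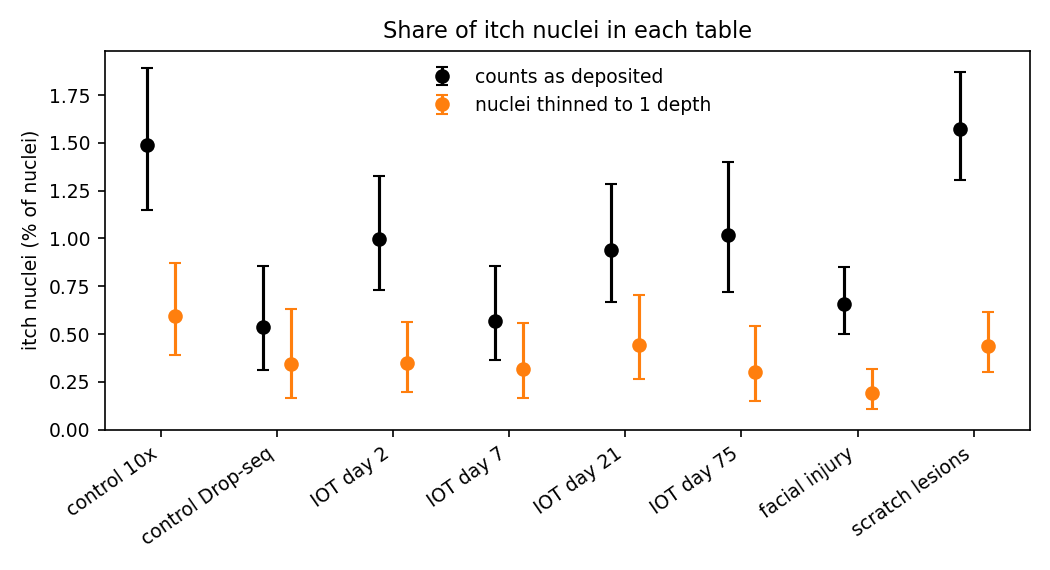
Percent of nuclei that met the itch rule in each of the 8 tables, with exact binomial 95% intervals, before and after every nucleus was thinned to 1104 UMIs. Unthinned shares ran from 0.535% in Drop-seq to 1.57% with scratch lesions, and thinned shares from 0.192% after facial injury to 0.595% in the 10x control.

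The rule genes themselves are given as a description, since their counts chose the nuclei. Il31ra (chr13:112519898-112594360, minus strand, mm10) stood at 1280 CPM (UMIs of a gene scaled to a common total for each sum of nuclei) in the itch nuclei of the 10x control, 1559, 2062, 1472 and 751 at IOT days 2, 7, 21 and 75, 1221 after facial injury and 1410 with scratch lesions. Nppb (chr4:147985788-147987205, plus strand) stood at 255 CPM in the control, 115, 267, 285 and 106 over the IOT days, 305 after facial injury and 26.2 with scratch lesions. Sst (chr16:23889573-23890958, minus strand) stood at 328 in the control, 158, 437, 351 and 443 over the IOT days, 377 after facial injury and 174 with scratch lesions. Drop-seq gave 2151, 564 and 388 CPM for Il31ra, Nppb and Sst.

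Most itch nuclei were found through Il31ra. It was the only rule gene with a UMI in 179 of the 406 (44.1%), it came with Sst in 101 (24.9%) and with Nppb in 54 (13.3%), and all 3 were seen together in 62 (15.3%). Nppb with Sst but no Il31ra made 9 nuclei (2.22%), and Nppb alone made 1. The make-up differed between libraries. All 3 genes were seen in 20 of 65 control nuclei (30.8%) and in 4 of 123 scratch lesions nuclei (3.25%), whereas Il31ra alone marked 24.6% of the control nuclei, 60.9% of those at IOT day 2 and 65.9% of those with scratch lesions.

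The low Nppb of the scratch lesions nuclei rested on 12 UMIs in 123 nuclei. Nppb was seen in 8.13% of them against 52.3% of the control nuclei, and after thinning of the chosen nuclei in 1.64% against 29.2%. The level was 0.102 of the control level (exact Poisson 95% interval of the ratio 0.0502 to 0.192). Sst was likewise seen in fewer thinned nuclei, 17.2% with scratch lesions against 33.8% in the control. The thinned Sst share at IOT day 2 was lower still, at 13.0%, so a low share was not particular to scratch lesions. Nppb and Sst helped choose these nuclei, so their values and the interval are a description and not a test. With 1 library on each side, they compare 2 libraries and not 2 conditions.

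**Figure D2:**
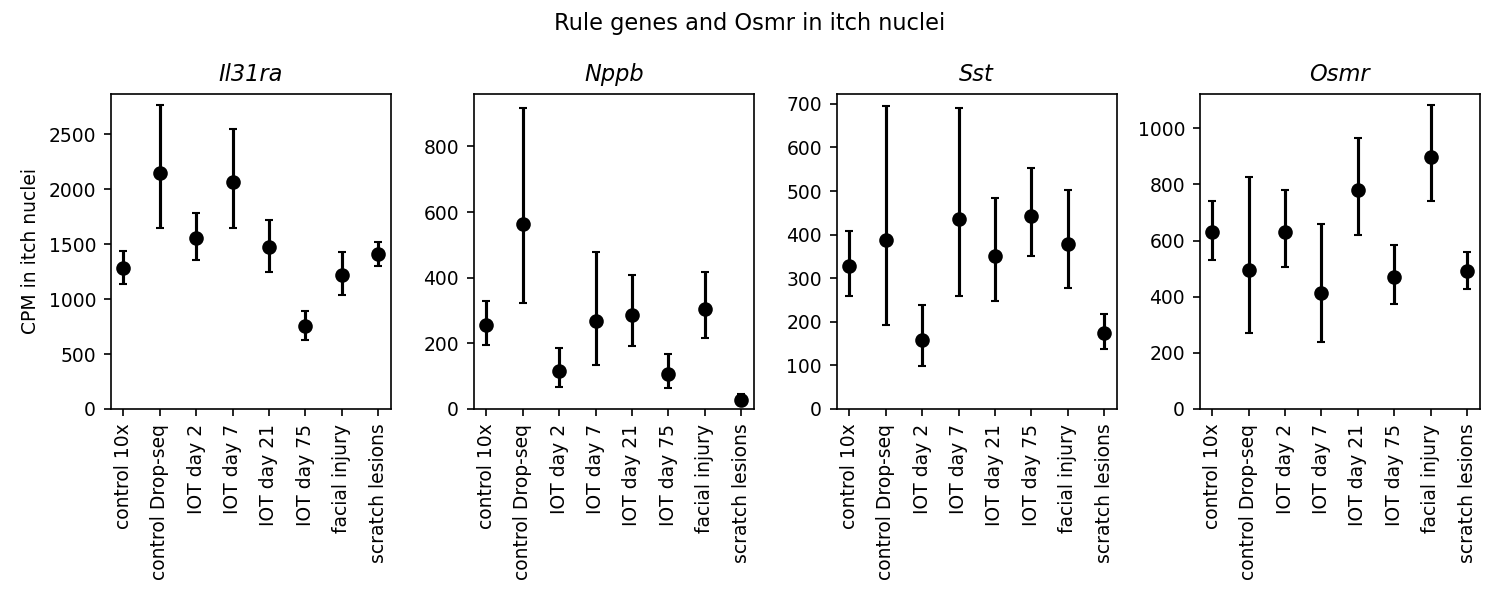
Level in CPM of the rule genes Il31ra, Nppb and Sst and of Osmr in the summed itch nuclei of each table, with exact Poisson 95% intervals. Il31ra ran from 751 to 2062 CPM over the 10x libraries, and the Nppb level with scratch lesions, 26.2 CPM, was the lowest of the series.

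Osmr, the receptor partner of Il31ra, was not used by the rule and checked the label. Osmr (chr15:6813577-6874969, minus strand) stood at 630 CPM in the itch nuclei of the 10x control, 632, 412, 779 and 471 over the IOT days, 899 after facial injury and 490 with scratch lesions. In zero nuclei it stood between 3.35 and 11.5 CPM, so the groups did not overlap in any library. In the control, 90.8% of itch nuclei had an Osmr UMI (median depth 3068 UMIs), against 1.90% of zero nuclei (3213) and 1.13% of large-diameter nuclei rich in Nefh and S100b and without Scn10a (4225.5), which should lack the gene. Thinned, the shares were 50.8% of itch and 0.570% of zero nuclei.

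Levels rose over the first UMIs of the rule genes and then flattened. Nuclei of the 10x tables with a sum of 0, 1 and 2 UMIs had 7.29, 39.5 and 370 CPM of Osmr, and those with 3, 4 to 5 and 6 or more had 618, 552 and 603. Htr1f, a serotonin receptor, went from 147 and 302 CPM at 0 and 1 UMI to 1815 at 2, 2647 at 3 and 2952 at 6 or more. Nefh, a heavy neurofilament of large myelinated neurons, went the other way, from 738 and 761 CPM at 0 and 1 to 599 at 2, 220 (164 to 289) at 3, 344 (290 to 406) at 4 to 5 and 347 (303 to 396) at 6 or more. For Osmr and Htr1f the 104 nuclei just outside the threshold lay between the nuclei with a sum of 0 and the 91 just inside, and for Nefh the nuclei just inside were below those with larger sums.

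**Figure D3:**
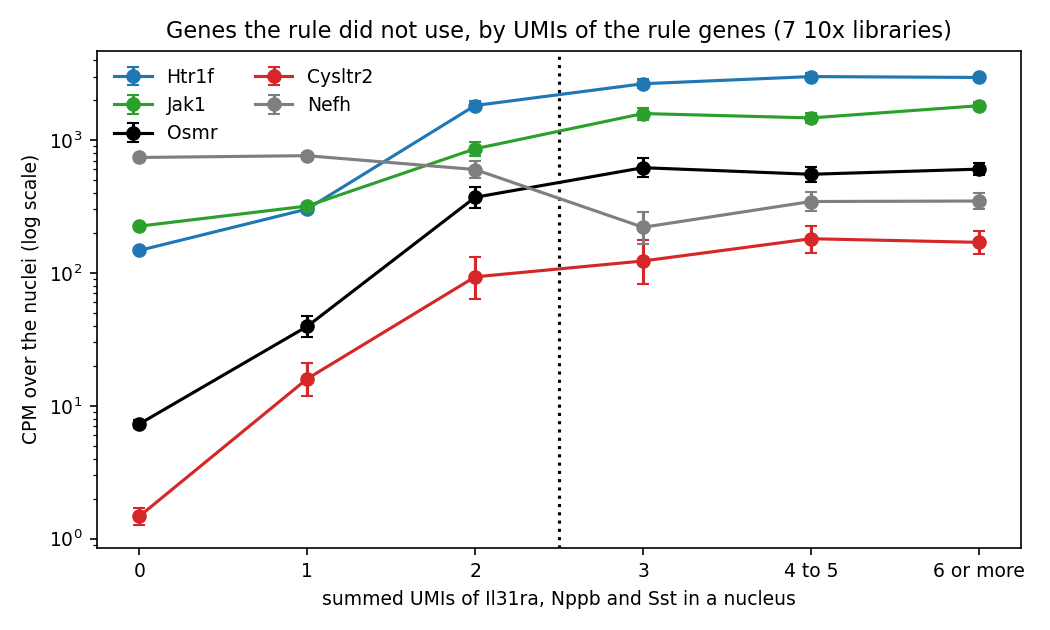
Level in CPM, on a log axis, of Osmr, Htr1f, Jak1, Cysltr2 and Nefh, with exact Poisson 95% intervals, in 10x nuclei binned by their summed UMIs of Il31ra, Nppb and Sst. Osmr rose from 7.29 CPM at a sum of 0 to 618 at 3 and stayed between 552 and 618 above it, while Nefh was lower inside the threshold than outside.

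In the main comparison, UMIs were summed over the itch nuclei and over the zero nuclei of each 10x library and compared within libraries over the 7, with 41219 (IOT day 7) to 458870 (scratch lesions) UMIs per itch sum (edgeR's quasi-likelihood test with Benjamini-Hochberg adjustment over all genes tested, rule genes left out). Of 13553 genes, 1249 (9.22%) were higher and 2266 (16.7%) lower in itch nuclei, 25.9% in either direction, at an adjusted p under 0.05, and 796 and 1314 of these moved the same way in all 7 libraries. The p-values measure the spread of the difference between these 7 libraries, which are of different conditions. The median log2 difference of all genes was -0.12. Without the trimmed-mean scaling that median was 0.05 and the calls were 1892 higher and 1652 lower, so 53.4% of calls were higher in place of 35.5%. The itch nuclei were also compared with zero nuclei that had at least 2 UMIs of Scn10a, the sodium channel of nociceptors (10770 nuclei), with nuclei that had at least 2 UMIs of Mrgpra3 (63 nuclei) and with nuclei that had at least 2 UMIs of Mrgprd (315 nuclei). All 4 comparisons share the same itch sums, so they are given side by side and not counted as support for each other.

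All 8 tested members of the list of itch neuron markers other than the rule genes were higher in itch than in zero nuclei, with a median log2 difference of 3.60. Without the library block 7 of 8 were higher. Against Scn10a nuclei 6 of 7 tested members were higher, against Mrgpra3 nuclei 4 of 5, and against Mrgprd nuclei 4 of 5 with 1 lower. The list was drawn with earlier results of these data known. Osmr was higher by 6.30 ± 0.13 (log2, SE taken from the same test, here and below), with a p too small to be written. Cysltr2 (chr14:73025603-73049114, minus strand), a receptor for cysteinyl leukotrienes, stood at 153 CPM in the control itch nuclei, 237, 121, 323 and 123 over the IOT days, 145 after facial injury and 137 with scratch lesions. It was between 0.782 and 2.00 CPM in zero nuclei, a difference of 6.70 ± 0.26 (adjusted p = 2.56e-143), and 38.5% of control itch nuclei had a UMI of it against 0 of the large-diameter nuclei.

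Htr1f (chr16:64924729-65105854, minus strand) stood at 3131 CPM in the control itch nuclei, 4633, 3396, 3666 and 2336 over the IOT days, 2963 after facial injury and 2266 with scratch lesions. Zero nuclei held 95.8 to 246 CPM and 44.1% of control large-diameter nuclei had a UMI, so the difference from zero nuclei, 4.24 ± 0.11, was smaller than that from the Scn10a nuclei, 6.05 ± 0.13 (adjusted p = 2.86e-62), which held 19.2 to 71.8 CPM. S1pr1, a receptor for the lipid sphingosine 1-phosphate, was higher by 3.79 ± 0.36 (adjusted p = 9.9e-25) and the histamine receptor Hrh1 by 3.41 ± 0.43 (adjusted p = 8.37e-14), the latter on 26 itch UMIs.

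Jak1, the kinase through which the interleukin-31 receptor signals, was also high. Jak1 (chr4:101152367-101265282, minus strand) stood at 1965 CPM in the control itch nuclei, 1235, 1723, 1719 and 1843 over the IOT days, 1678 after facial injury and 1528 with scratch lesions, against 172 to 262 in zero nuclei (2.73 ± 0.11, adjusted p = 4.48e-144). Socs2, an inhibitor of cytokine signalling, stood at 243 to 409 CPM against 30.2 to 49.5 (2.96 ± 0.13, adjusted p = 9.01e-109). Both were higher in every library. Of 32 tested cytokine receptor and JAK-STAT genes, 11 were higher and 3 lower, with a median of 0.26.

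Stat3, a transcription factor downstream of Jak1, was higher by 0.82 ± 0.11 (adjusted p = 8.04e-12), Lifr, the receptor for leukaemia inhibitory factor, by 0.59 ± 0.11, and Il6st, the chain shared by receptors of the interleukin-6 family, by 0.39 ± 0.12 (adjusted p = 0.00829). The interleukin-13 receptor chain Il13ra1 was higher by 1.67 ± 0.35 on 35 itch UMIs and the interleukin-17 receptor Il17ra by 2.80 ± 0.44 on 26. The phosphatases Ptpn11 and Ptpn2, which dampen or relay such signals, were lower, with differences of -0.86 ± 0.15 and -1.13 ± 0.28.

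Receptors for other itch mediators went both ways, with 11 of 29 tested genes higher, 10 lower and a median of -0.13 (10 higher and 5 lower with DESeq2). Hrh2, a second histamine receptor, was higher by 3.95 ± 0.39 and the serotonin receptor Htr2a by 2.30 ± 0.36. Mrgpra2b, a member of the Mas-related receptor family whose paralogs can share reads, was higher by 1.61 ± 0.17 (adjusted p = 2.44e-19). The prostaglandin receptor Ptger3 and the lysophosphatidic acid receptor Lpar3 were lower, with differences of -1.57 ± 0.24 and -1.13 ± 0.27. Hrh3 had 0 UMIs in the itch nuclei and 551 in zero nuclei, and was at least 2.09-fold lower against a floor of 3 counts over all 1282696 itch UMIs.

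The 10 largest rises by log2 difference held 8 genes beside Osmr and Cysltr2. Pde4c (chr8:70723720-70751186, plus strand), a phosphodiesterase that breaks down cyclic AMP, stood at 566 CPM in the control itch nuclei, 898, 1286, 1073 and 443 over the IOT days, 570 after facial injury and 466 with scratch lesions. Zero nuclei held 2.97 to 6.32 CPM, and the difference was 7.08 ± 0.13. Npy2r (chr3:82538383-82548084, minus strand), a receptor for neuropeptide Y and peptide YY, was at 151 to 370 CPM in itch and 2.20 to 5.43 in zero nuclei (5.72 ± 0.22, adjusted p = 5.26e-143).

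Ptafr, the receptor for platelet activating factor, was higher by 5.92 ± 0.33 (adjusted p = 2.23e-68), at 24.3 to 104 CPM against 0.378 to 1.42. Trpm6, a magnesium channel with its own kinase domain, was higher by 4.96 ± 0.23 (adjusted p = 1.4e-99) and the serotonin receptor Htr1a by 4.76 ± 0.31 (adjusted p = 2.92e-51). Gm525, Lvrn and 1700011L22Rik completed the 10 largest, with differences of 6.35 ± 0.34, 5.09 ± 0.33 and 4.70 ± 0.33. For each of these 10 genes the lowest itch level lay above the highest zero level. As they were picked for large rises in all 7 libraries, this adds no support. Its share over all genes tested was not counted.

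**Figure D4:**
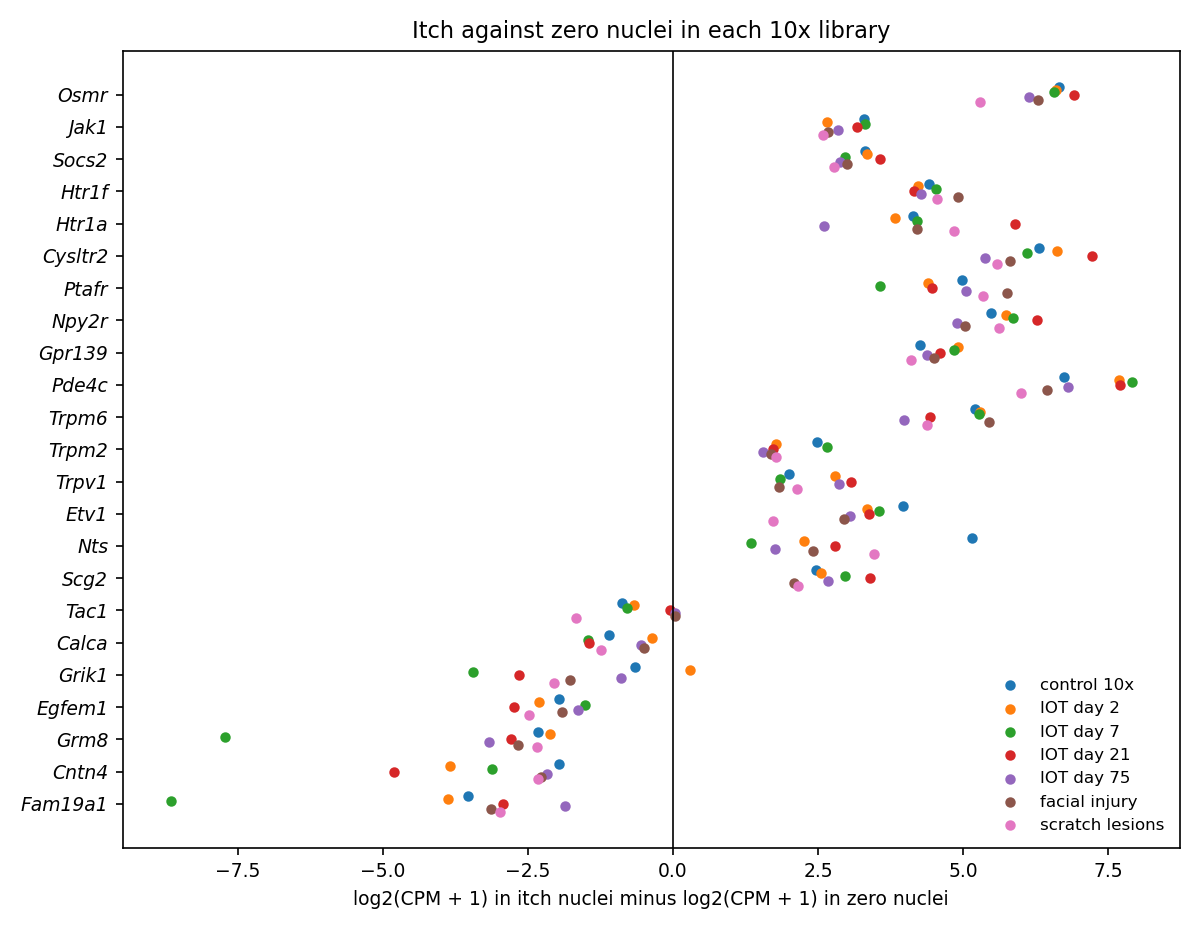
Difference between itch and zero nuclei, as log2(CPM + 1) in itch minus log2(CPM + 1) in zero nuclei, for 23 named genes (vertical axis), with 1 point per 10x library. Points for Pde4c, Cysltr2, Osmr and Jak1 lay to the right of 0, higher in itch nuclei, in 7 of 7 libraries, and those for Calca, Grm8 and Fam19a1 to the left in 7 of 7.

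Genes lower in itch nuclei were led by RP23-416J8.1 (-3.60 ± 0.20) and Fam19a1, a secreted chemokine-like protein also named Tafa1 (-3.13 ± 0.14, adjusted p = 1.94e-104). Fam19a1 stood at 72.3 CPM in the control itch nuclei, 64.6, 0, 123 and 269 over the IOT days, 80.3 after facial injury and 105 with scratch lesions, against 402 to 978 in zero nuclei. Ndst4 (-3.0 ± 0.18), Mgat4c (-2.92 ± 0.21), Fam19a2 (-2.81 ± 0.16), the sorting receptor Sorcs3 (-2.79 ± 0.21), the growth factor Igf1 (-2.73 ± 0.34), the glutamate receptor Grm8 (-2.71 ± 0.16), the adhesion protein Cntn4 (-2.71 ± 0.18) and Csmd3 (-2.67 ± 0.14) followed.

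In the list of sensory transduction genes, 14 of 34 were higher and 14 lower, with a median of -0.11. Trpv1, the heat and capsaicin channel, stood at 97.0 to 190 CPM in itch and 17.8 to 42.3 in zero nuclei (2.24 ± 0.18, adjusted p = 9.02e-35), and Trpm2, a heat and oxidant channel, was higher by 1.81 ± 0.17. Other members of the list that were higher included the G protein subunit Gna14 at 2.1 ± 0.12, the phospholipase Plcb3 at 1.29 ± 0.16 and the kinases Prkca and Prkcd at 1.82 ± 0.10 and 2.04 ± 0.16. Piezo2, the touch channel, was lower (-1.99 ± 0.12, adjusted p = 2.47e-60), and so were the cold channel Trpm8 (-2.39 ± 0.27) and the chloride channel Ano1 (-2.37 ± 0.38). Trpa1, the irritant channel, did not pass the test (-0.40 ± 0.26, adjusted p = 0.28).

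Of 11 tested neuropeptides and transmitter transporters, 2 were higher and 7 lower, with a median of -0.75. Nts, which encodes neurotensin, stood at 111 CPM in the control itch nuclei, 50.3, 97.0, 342 and 72.8 over the IOT days, 112 after facial injury and 275 with scratch lesions, against 2.14 to 48.3 in zero nuclei (2.84 ± 0.19, adjusted p = 1.07e-49). Calca, which encodes the peptide CGRP, stood at 191 CPM in the control itch nuclei, 251, 146, 171 and 325 over the IOT days, 915 after facial injury and 503 with scratch lesions. In the zero nuclei of the same libraries it stood at 412, 324, 403, 467, 477, 1291 and 1188 CPM, so it was lower in itch nuclei in all 7 (-1.06 ± 0.12, adjusted p = 4.04e-17). Tac1, which encodes substance P, was lower (-0.75 ± 0.13) and in 5 of 7 libraries, and Nmb, neuromedin B, was higher by 0.52 ± 0.17 (adjusted p = 0.0127). With DESeq2 the list had 4 lower, and without the library block 1 lower, Calca and Tac1 then missing the threshold.

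Genes for loading and release of peptide vesicles had 6 of 26 higher and 14 lower, with a median of -0.48 (4 higher and 6 lower without the library block). Scg2, a granin of dense-core vesicles, was at 194 to 443 CPM in itch and 32.2 to 74.6 in zero nuclei (2.39 ± 0.13, adjusted p = 2.14e-71). The calcium sensor Syt9 (1.59 ± 0.12) and the peptide-amidating enzyme Pam (1.03 ± 0.11) were higher, and Syt2, the calcium sensor of fast synapses, was lower (-2.05 ± 0.15). Of 7 tested genes for natriuretic peptide and somatostatin signalling, the guanylate cyclase subunit Gucy1a2 was higher (1.18 ± 0.16, adjusted p = 3.05e-12) and 2 were lower.

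More ion channel genes were lower than higher against zero nuclei, which hold the other neuron classes. Calls over all genes tested also leaned lower, with 9.22% higher and 16.7% lower. These are the shares to set beside each list count above and below. Of 40 potassium channel genes 6 were higher and 25 lower (median -1.50), of 13 sodium channel genes 4 and 7 (median -0.78), and of 15 calcium channel genes 2 and 7 (median -0.66). The exceptions included the nociceptor sodium channels Scn10a (0.96 ± 0.10, adjusted p = 1.41e-18) and Scn11a (1.09 ± 0.14), the potassium channels Kcnc2 (0.92 ± 0.12), Kcnh7 (0.78 ± 0.10) and Kcnn1 (1.49 ± 0.22), and the calcium channel Cacna1c (1.54 ± 0.10). Scn1a (-2.29 ± 0.18), Scn8a (-2.03 ± 0.15), Kcnq5 (-2.45 ± 0.20), Kcnma1 (-2.14 ± 0.17) and Cacnb4 (-2.24 ± 0.13) were lower. Scn9a, another nociceptor sodium channel, did not pass the test (adjusted p = 0.63).

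Among 31 tested transcription factors of sensory neuron identity, 8 were higher and 15 lower (median -0.75). Etv1 stood at 600 CPM in the control itch nuclei, 388, 291, 351 and 353 over the IOT days, 321 after facial injury and 146 with scratch lesions, against 24 to 43.6 in zero nuclei (2.95 ± 0.13, adjusted p = 4.21e-103). Tshz2 (1.08 ± 0.10), Prdm12 (0.80 ± 0.13) and Runx1 (0.52 ± 0.12), the last 2 being factors of the nociceptor lineage, were higher. Meis2 (-2.22 ± 0.17) and Esrrg (-2.36 ± 0.18) were lower.

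Of 16 trophic factor receptors, 2 were higher and 10 lower (median -0.81). Gfra3, the receptor for artemin, was higher (1.07 ± 0.18), while the neurotrophin receptors Ntrk3 (-2.04 ± 0.13) and Ntrk2 (-1.87 ± 0.17) were lower. Of 20 receptors that inhibit neurons, 3 were higher and 14 lower (median -1.32, or -1.15 with the genes at 0 itch UMIs set at their floor). Oprm1, the mu opioid receptor, was at 279 to 541 CPM in itch and 86.0 to 159 in zero nuclei (1.34 ± 0.12, adjusted p = 3.09e-27). Oprk1 and Oprd1, the kappa and delta opioid receptors, had 0 UMIs in itch nuclei and 668 and 604 in zero nuclei, at least 2.34-fold and 2.14-fold lower. These and Hrh3 passed with edgeR and not with DESeq2.

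Set against the Scn10a nuclei, picked by a transcript of nociceptors, 1007 of 11034 genes (9.13%) were higher and 1459 (13.2%) lower, 22.3% in either direction. All 5 tested markers of large-diameter neurons were lower in itch nuclei here too (median -1.27, against -1.47 with all zero nuclei). The Scn10a nuclei are thus not shown to be thin neurons alone. Without trimmed-mean scaling the calls were 1377 higher and 1223 lower. Pde4c was higher by 7.16 ± 0.15 (adjusted p = 2.95e-64), Cysltr2 by 6.01 ± 0.24, Osmr by 5.79 ± 0.14 (adjusted p = 5.02e-59) and the orphan receptor Gpr139 by 5.18 ± 0.19 (172 to 273 CPM against 4.56 to 7.70). Jak1 was higher by 3.37 ± 0.11, Socs2 by 2.74, Nts by 3.68, Scg2 by 2.09, Trpv1 by 1.97 and Etv1 by 3.0. Il6st (-0.20, adjusted p = 0.26), P2rx3 (0.32, adjusted p = 0.19), Runx1 (0.23, adjusted p = 0.22) and Scn11a (0.29, adjusted p = 0.10) did not pass the test in this comparison.

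Calca (-1.76, adjusted p = 2.4e-22) and Piezo2 (-1.94) were lower than in Scn10a nuclei. L3mbtl4 (-3.40 ± 0.24), the nicotinic receptor Chrna7 (-3.38 ± 0.27), Fam19a1 (-3.37 ± 0.16), Kcnq5 (-3.10 ± 0.20) and the glutamate receptor Grm5 (-3.0 ± 0.31) were the largest falls. The median of all genes tested was -0.02.

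The Mrgpra3 nuclei are another known itch class of the ganglion, and only 3 to 24 were found per 10x library, so 2016 genes could be tested. Of these, 113 (5.61%) were higher and 124 (6.15%) lower in the Il31ra, Nppb and Sst itch nuclei. Mrgpra3 itself was at 0 CPM in the itch nuclei of 5 of 7 libraries, with 24.3 CPM at IOT day 7 and 9.50 at day 21. Osmr (3.37 ± 0.34, adjusted p = 8.03e-16, 16 UMIs in Mrgpra3 nuclei) and the receptor phosphatase Ptprk (4.75 ± 0.39, 7 UMIs) were higher. Htr1f passed the test with 4 UMIs in Mrgpra3 nuclei, all in 1 library, so no fold is given. Pde4c, Gpr139, Npy2r, Cysltr2 and the syntrophin Sntb1 passed the test as well, but with 1 to 3 UMIs each over all Mrgpra3 nuclei, so no fold is given for them.

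Several genes that set itch nuclei apart from zero nuclei did not pass the test against Mrgpra3 nuclei. Etv1, at 88.8 to 771 CPM in Mrgpra3 nuclei, differed by -0.41 ± 0.24 (adjusted p = 0.33), Oprm1 by 0.20 (adjusted p = 0.71), Gna14 by 0.20 (adjusted p = 0.71) and Prkcd by 0.10 (adjusted p = 0.91). Jak1 (2.87), Scg2 (2.15), Socs2 (1.71), Runx1 (1.78) and Trpv1 (1.45, adjusted p = 0.0041) were higher. The regulator of G protein signalling Rgs5 stood at 9.50 to 146 CPM against 359 to 1332 in Mrgpra3 nuclei (-3.82 ± 0.30, adjusted p = 7.2e-23), Egfem1 at 61.0 to 174 against 533 to 2961 (-3.20 ± 0.24), and Mrgpra2b (-1.39, adjusted p = 3.9e-05) and Calca (-1.70, adjusted p = 4.3e-09) were lower.

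The Mrgprd nuclei mark thin neurons of the skin that sense touch, pain and the itch compound beta-alanine. Against them 367 of 3042 genes (12.1%) were higher and 397 (13.1%) lower in itch nuclei, or 483 and 339 without trimmed-mean scaling. Htr1f was higher by 6.43 ± 0.23, Osmr by 5.86 ± 0.26 (adjusted p = 8.37e-16) and Cysltr2 by 4.86 ± 0.37 (6 UMIs in Mrgprd nuclei). Pde4c and Npy2r passed the test too, but with 1 and 2 UMIs over all Mrgprd nuclei, so no fold is given. Etv1 was higher here by 4.18 (0 to 45.4 CPM in Mrgprd nuclei), and so were Trpm2 by 4.80 ± 0.37 (6 UMIs in Mrgprd nuclei), Oprm1 by 2.74 and Trpv1 by 2.28.

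The glutamate receptor Grik1 was the largest fall against Mrgprd nuclei, at 72.8 to 1135 CPM in itch against 3608 to 9248 (-3.90 ± 0.22, adjusted p = 2.34e-13). Lpar3 (-3.66 ± 0.25), the serotonin receptor Htr4 (-3.77 ± 0.26) and the kinase Prkcq (-3.82 ± 0.29) were also lower, and so were Runx1 (-1.32, adjusted p = 6.1e-08), Scn11a (-1.07) and Il6st (-0.59, adjusted p = 0.0029). Gna14, Prkcd, Prdm12 and Tshz2 did not pass the test, with differences of 0.00, -0.06, 0.02 and 0.07.

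Markers of other cells moved with some of these differences. Of 10 tested satellite glia markers 5 were higher and none lower in itch than zero nuclei (median 0.56), and of 10 Schwann cell markers 6 were higher and 1 lower (median 0.66). Apoe, high in satellite glia, was higher by 0.52 ± 0.11. The summed satellite glia level was 630.8 to 1927 CPM in itch and 429 to 1038 in zero nuclei and higher in itch in 7 of 7 libraries, the Schwann level was higher in 6 of 7 (939 to 3154 against 884 to 1753) and the fibroblast level in 7 of 7 (128 to 314 against 94.8 to 217). Without the library block 1 satellite glia and 0 Schwann cell markers were higher, and with DESeq2 3 and 4. Vascular, leukocyte and red cell levels were higher in 3, 2 and 3 of 7.

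The summed markers of large-diameter neurons were lower in itch nuclei in all 7 libraries, at 315 to 948 CPM against 1802 to 2466. So was the sum of 4 peptidergic markers, at 437 to 1550 against 549 to 1826. Of these 4 genes 3 were lower and 1, Trpv1, was higher, and without the library block 1 was higher and 0 lower. The part of these other cells in the results above was not tested. Of 7 tested immediate early genes, 2 were higher and none lower (median 0.71), with Fosl2 at 16.8 to 131 CPM against 7.38 to 18.7 (1.98 ± 0.27, adjusted p = 7.71e-12) and Junb higher by 1.12 ± 0.29 (adjusted p = 0.000838).

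Each injury library was set against the 10x control within itch nuclei as a description. Genes at least 2-fold higher and lower made 5.85% and 6.74% at IOT day 2, 8.82% and 16% at day 7, 7.62% and 7.43% at day 21, 7.19% and 4.31% at day 75, 12.8% and 7.49% after facial injury and 12.9% and 9.68% with scratch lesions. The 5 largest ratios each way were named per library, 60 in all. In the zero nuclei 56 of the 59 that had a zero ratio moved the same way, so these libraries differed from the control library in both groups of nuclei. Nppb with scratch lesions had no zero ratio, since zero nuclei hold 0 UMIs of a rule gene by definition. The 6 comparisons share the 65 control nuclei.

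At IOT day 2, Rab23, a small GTPase, stood at 215 CPM in itch nuclei against 12.8 in the control (ratio 16.9, exact Poisson 95% interval 5.25 to 86.5) and had a ratio of 11.7 in zero nuclei. At day 7 its ratio was 32.3 (9.35 to 172) in itch and 25.4 in zero nuclei. Caln1, a calcium-binding protein, stood at 1019 CPM against 63.8 at day 7 (ratio 16, 8.68 to 31.0) with a ratio of 21.4 in zero nuclei, and Unc5cl had 13.7 (7.97 to 24.3) against 13.9. The ratios of Rab23, Caln1 and Unc5cl were of similar size in itch and zero nuclei. Other rises at day 2 had larger ratios in itch than in zero nuclei, with 47.3 (7.82 to 1933, 1 control UMI) against 6.98 for AI481877, 45.6 (7.52 to 1867, 1 control UMI) against 4.94 for Ropn1 and 14.4 (5.12 to 55.7) against 1.83 for Arhgef3.

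Kcnma1 was lower at IOT day 2 in itch nuclei, at 21.5 CPM against 149 (ratio 0.145, 0.0285 to 0.459, on 3 UMIs), with a ratio of 1.09 in zero nuclei. Grik1 was lower at day 7 (0.0951, 0.0194 to 0.282, on 3 UMIs), with 0.663 in zero nuclei. Ctsl, the lysosomal protease cathepsin L, was higher at day 21 (294 against 59.6 CPM, ratio 4.94, 2.55 to 10.1) and after facial injury (434 CPM, ratio 7.28, 3.99 to 14.2), with ratios of 1.99 and 4.36 in zero nuclei. At day 75, the zinc finger gene Zfp13 was higher (471 against 59.6 CPM, ratio 7.90, 4.46 to 15.1), with 2.70 in zero nuclei. The difference between the itch and zero ratios was not tested for any of these genes.

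With scratch lesions, Gal, which encodes the peptide galanin, stood at 244 CPM on 112 UMIs in itch nuclei against 4.25 CPM on 1 UMI in the control (ratio 57.4, 10.1 to 2286), and at 181 against 18.3 CPM in zero nuclei (ratio 9.86). Polg2, a subunit of the mitochondrial DNA polymerase, stood at 331 against 8.51 CPM (ratio 38.9, 10.6 to 324) with a ratio of 22.4 in zero nuclei. The sialyltransferase St3gal4 was lower, at 52.3 against 485 CPM (0.108, 0.0664 to 0.169), with 0.139 in zero nuclei, and Mettl23 was lower with 0.0831 (0.0287 to 0.199), against 0.0502 in zero nuclei.

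Atf3, a transcription factor induced in axotomised neurons, was compared between itch and zero nuclei within each injury library. The study reports that axotomised neurons lose nearly all of their original identity. An itch neuron that lost its rule transcripts would fall outside the rule and could be counted as a zero nucleus. The values here and the score below thus describe nuclei that kept those transcripts, and cannot show how often itch neurons were injured. Atf3 stood at 4.25 CPM in itch and 2.56 in zero nuclei of the 10x control, each itch value here resting on 1 to 5 UMIs except with scratch lesions. At IOT days 2, 7 and 21 it stood at 21.5, 48.5 and 9.50 CPM in itch nuclei and 54.4, 81.8 and 33.6 in zero nuclei. At day 75 it was 28.0 against 10.2, after facial injury 24.1 against 15.4, and with scratch lesions 76.3 (53.1 to 106, on 35 UMIs) against 23.2.

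The itch value was below the zero value at the first 3 IOT times and above it in the other 3 injury libraries, but its counting interval held the zero value in 5 of the 6, the exception being scratch lesions. The mean log2 difference over the 6 was -0.016 ± 1.43 (SD, n = 6), higher in 3 of 6, and did not pass a two-sided exact sign-flip permutation test (p = 0.969, the smallest possible being 0.03125). Against Scn10a nuclei in place of all zero nuclei the mean was 1.19 ± 0.901, higher in 5 of 6, with p = 0.0625 in the same exact test, and with thinned nuclei it was -2.08 ± 2.86, higher in 1 of 6 (p = 0.156, same exact test). The thinned itch nuclei held 0 Atf3 UMIs at IOT days 2 and 75 and after facial injury, and 1 each at days 7 and 21. The thinned mean therefore rests on values at or near the floor and is not read as a fall. With scratch lesions, 17.1% of itch nuclei had an Atf3 UMI against 4.22% of zero nuclei, at median depths of 3310 and 2282 UMIs.

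A score that summed the CPM of the injury genes measured from a list of 10 (9 measured in all 10x tables, Atf3 included) was lower in itch nuclei in 4 of the 6 injury libraries. It was 136 CPM in itch and 209 in zero nuclei of the control, 395 against 815 at IOT day 2, 194 against 689 at day 7, 266 against 475 at day 21, 375 against 327 at day 75, 193 against 328 after facial injury and 850 (768 to 939) against 447 with scratch lesions. The mean log2 difference over the 6 injury libraries was -0.557 ± 0.972 (SD, n = 6), higher in 2 of 6 (two-sided exact sign-flip permutation p = 0.281). Against Scn10a nuclei it was -0.069 ± 0.627 (p = 0.781, same exact test). Of 17 tested genes that the study chose on these samples as induced by injury, 3 were higher and 6 lower in itch than zero nuclei over all 7 libraries (median -0.15), and as the list came from these samples it is not independent evidence. Nts, given above, was the largest rise in it, followed by Lmo7, a protein of cell junctions (2.02 ± 0.20, adjusted p = 1.9e-23). Without the library block 2 were higher and 2 lower, and against Scn10a nuclei 4 were higher and 2 lower (median 0.14).

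**Figure D5:**
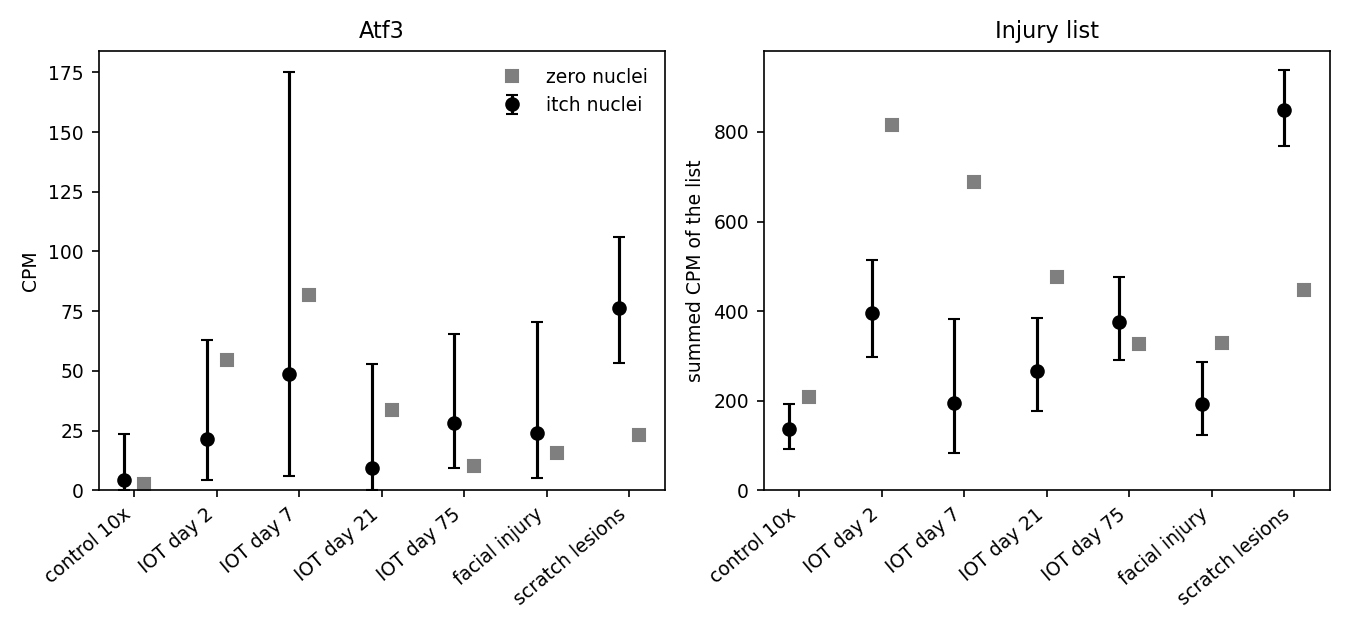
Atf3 level and injury score in CPM in the summed itch nuclei, with exact Poisson 95% intervals, and in the zero nuclei of each 10x library. Itch nuclei lay below zero nuclei in Atf3 at IOT days 2, 7 and 21 and above them with scratch lesions (76.3 against 23.2 CPM).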

How the data were processed

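Nuclei from pooled mouse trigeminal ganglia were sequenced in 8 tables (GEO labels give 1 control and 6 injury conditions on 10x v2 and 1 control on Drop-seq, 4 libraries in 1 table with no label per nucleus). The unit is UMI counts, which the authors made by aligning reads to mm10 with introns counted, and deposited after their filters on genes and mitochondrial reads and after removal of non-neuronal clusters. The submitters' processing notes name STAR 2.5.3a, Seurat 2, Cell Ranger 2.1.0 and bcl2fastq 2.17. Depth ran from 41219 to 458870 UMIs per 10x itch sum.

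The members, the comparison nuclei and the gene lists were chosen with earlier results of these data known. UMIs were summed per library and class and tested with edgeR 4.0.16 (trimmed-mean scaling, its low-count filter, library as a block, quasi-likelihood test, Benjamini-Hochberg adjustment) in R 4.3.3. The SE was the log2 difference over the square root of F. The sums of itch and other nuclei of 1 library come from the same mice, so the block is by construction. Levels are CPM with exact Poisson intervals, and shares have exact binomial intervals, at the 95% level. Thinning drew 1104 UMIs per nucleus and left out 1705 shallower nuclei of the 8 tables. The test was run on simulated sums, drawn with 1 spread for all genes and no library effect. It recovered 63%, 58%, 53.85% and 80% of 2-fold changes against zero, Scn10a, Mrgpra3 and Mrgprd nuclei. Of 4-fold changes it recovered 100% in each. A gene that did not pass the test may thus still differ by 2-fold. No doublet caller was run, and leaving out nuclei above the 95th percentile of UMIs was an alternative, as were DESeq2 1.42.0, other rule thresholds and each library left out. Named genes were the rule genes, Osmr, the 10 largest rises and falls of each comparison (adjusted p under 0.05, at least 50 CPM in the higher group, 1 direction in 7 libraries), up to 6 members of each list and, for single libraries, the 5 largest ratios each way at 100 CPM or more. Falls and rises named beyond 6 per list, and Fosl2, Junb and Lmo7, were taken from the lists after their values were seen. Coordinates are from GENCODE vM21, which matched 22593 of 24243 symbols (93.2%). Upstream sequences are from RefSeq (GRCm38.p6), matched by symbol for 4 of 4 genes.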

Additional observations from a re-analysis of the deposited data

How the results depend on the processing

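Single genes were followed through the alternatives for 115 genes against zero nuclei and for 20 in each other comparison. None of these turned direction where it was tested. The other genes given above were not followed singly. In the comparison with zero nuclei 126 tests over 115 genes and 17 settings lost their call, among them Ednrb, Sox11 and Prkg1. A further 19 could not be tested. Counts that moved by over 1.5 times were as follows, and the cause was not tested. Against zero nuclei, 1892 genes were higher without trimmed-mean scaling, 1480 were lower with DESeq2, and without the library block 702 were higher and 1387 lower. Against Scn10a nuclei, 465 were higher and 765 lower without the library block, and 546 were higher with a rule of at least 5 UMIs. Against Mrgpra3 nuclei, 290 were higher without the low-count filter, 64 with at least 5 UMIs and 45 within the middle depth window (59 lower). With Mrgpra3 nuclei of at least 1 UMI, chosen after seeing the data, 267 were higher and 323 lower. Against Mrgprd nuclei, 616 were lower without the filter, and without the library block 178 were higher and 244 lower.

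Leaving out 1 library at a time gave 1082 to 1276 higher and 1903 to 2150 lower against zero nuclei, 843 to 963 and 1276 to 1480 against Scn10a nuclei, 79 to 107 and 97 to 128 against Mrgpra3 nuclei, and 289 to 394 and 344 to 411 against Mrgprd nuclei. The same gave mean log2 differences of -0.354 to 0.324 for Atf3 (its sign turned to 0.239 without IOT day 2, 0.129 without day 7 and 0.324 without day 21) and -0.853 to -0.304 for the injury score, and Atf3 turned to 1.19 against Scn10a nuclei and went to -2.08 with thinned nuclei. The 10x control share was 1.03% with at least 5 UMIs and 0.595% thinned. No paired analysis between conditions was possible because each had 1 library.

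Depth limited the Mrgpra3 comparison most, with 63 nuclei in 7 libraries. Atf3 values in itch nuclei rested on 1 to 5 UMIs in all 10x libraries but scratch lesions, and on 0 or 1 in those libraries after thinning.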

Other observations

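The Drop-seq itch nuclei, 17 in number and used in tests only where all 8 tables were taken as an alternative, are given here as values. In their sum, Pde4c stood at 1128 CPM against 3.32 in the Drop-seq zero nuclei, Osmr at 494 against 6.50, Npy2r at 282 against 6.10, Trpm6 at 353 against 3.85 and Cysltr2 at 176 against 1.19. Fam19a1 stood at 35.3 against 265 CPM and Ndst4 at 35.3 against 189. Htr1a had 0 UMIs in these nuclei and 2.79 CPM in the zero nuclei.

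In the 10x tables, 5 nuclei had at least 3 UMIs of Sst with none of Il31ra or Nppb and were not counted as itch nuclei. They held 2 UMIs of Osmr and 32 of Nefh in all, and 1 nucleus at IOT day 75 with 21095 UMIs gave 29 of those Nefh UMIs and 0 of the Osmr UMIs.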
